A study of Mus musculus with 8 samples.

Results

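The regions described here carried an H3K36me3 peak in cells with the reprogramming factors induced and no peak in uninduced cells. They are the peaks of the OSKM B12 list on chromosomes 1 to 19 that were at least 500 bases long, shared no base with any peak of the MEF or MEF B12 list, and overlapped a peak of the OSKM list. Of 67234 OSKM B12 peaks on these chromosomes, 51033 were at least 500 bases long, 4220 of those held no base of an uninduced peak, and 404 of those met an OSKM peak. The 404 regions were thus chosen by their measured presence in 4 peak lists. Their presence in the induced lists and their absence from the uninduced lists describe the selection and are not findings, and the same holds for their length. The 404 regions are 0.792% of the OSKM B12 peaks of that length.

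The cells were i4F mouse embryonic fibroblasts (MEFs) from an E13.5 embryo, which the labels call Clone 1, and all 4 conditions share this embryo and its doxycycline-inducible cassette of OCT4, SOX2, KLF4 and MYC (OSKM). At 72 h, the uninduced cells had been grown without doxycycline, either without added vitamin B12 (MEF) or with 2 µM vitamin B12 (MEF B12), and the induced cells with doxycycline, labelled as 1 µg/ml, either without (OSKM) or with 2 µM vitamin B12 (OSKM B12). For every condition 1 H3K36me3 and 1 input library were sequenced, so no difference between conditions has a replicate check, no p-value is given, and the results hold for a line from 1 embryo. The peaks of a library were called against its own input, with 29046913 to 33399267 H3K36me3 tags a library. Of 12 fibroblast markers fixed for this work, 11 held peaks in each of the 4 lists, with median covered shares of the gene body between 67.2% in OSKM and 82.5% in MEF B12, and Twist1, a short gene, held none.

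Trimethylation of lysine 36 on histone H3 is placed by SETD2, which travels with the elongating RNA polymerase II, so the mark lies along the bodies of transcribed genes and usually becomes denser towards their 3′ ends. In gene bodies the mark is read by the PWWP domains of the de novo DNA methyltransferases, which then methylate CpG dinucleotides there. In fibroblasts, the genes of the extracellular matrix and of the mesenchymal programme are among those that carry the mark, and reprogramming is known for switching such genes off before the pluripotency genes are switched on.

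The sequence of the regions is shown for 6 stretches of 200 bases, each at the middle of the bases that the OSKM and OSKM B12 peaks share. The 2 strongest regions by the lower of their induced pileups, 2 regions of Tek, the gene with most regions, and 2 regions in genes without any uninduced peak were taken, leaving out untranslated regions. Bases are from the RefSeq record of GRCm38 (mm10), written 5′ to 3′ on the strand of the gene, and capitals mark the CpG dinucleotides.
Tbc1d22b, chr17:29591333-29591532, plus strand: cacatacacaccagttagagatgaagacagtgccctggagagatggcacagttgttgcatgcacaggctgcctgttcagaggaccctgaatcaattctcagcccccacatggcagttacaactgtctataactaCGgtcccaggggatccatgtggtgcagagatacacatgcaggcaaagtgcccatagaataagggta
Prkci, chr3:31025434-31025633, plus strand: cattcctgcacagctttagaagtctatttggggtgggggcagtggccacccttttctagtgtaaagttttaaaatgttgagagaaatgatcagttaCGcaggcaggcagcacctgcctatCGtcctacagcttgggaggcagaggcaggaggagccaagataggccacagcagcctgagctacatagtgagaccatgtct
Tek, intron 15, chr4:94857325-94857524, plus strand: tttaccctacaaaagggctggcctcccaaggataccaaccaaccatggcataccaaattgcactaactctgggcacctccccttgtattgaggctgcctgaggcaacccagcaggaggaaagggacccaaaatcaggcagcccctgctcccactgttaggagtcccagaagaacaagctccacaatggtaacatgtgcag
Tek, intron 20, chr4:94867640-94867839, plus strand: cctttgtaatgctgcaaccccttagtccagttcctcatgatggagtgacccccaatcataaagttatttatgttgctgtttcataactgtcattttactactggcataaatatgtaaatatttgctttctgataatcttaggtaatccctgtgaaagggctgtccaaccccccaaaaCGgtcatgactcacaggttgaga
Plin5, chr17:56112509-56112708, minus strand: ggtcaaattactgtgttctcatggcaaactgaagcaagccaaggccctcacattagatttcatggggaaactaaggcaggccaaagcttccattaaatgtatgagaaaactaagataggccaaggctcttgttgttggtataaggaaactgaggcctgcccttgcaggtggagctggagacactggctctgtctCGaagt
Mok, chr12:110808064-110808263, minus strand: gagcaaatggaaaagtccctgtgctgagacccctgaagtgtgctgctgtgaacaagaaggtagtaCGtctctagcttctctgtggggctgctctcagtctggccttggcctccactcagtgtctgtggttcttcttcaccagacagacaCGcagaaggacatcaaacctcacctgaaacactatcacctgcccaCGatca
The stretches in Plin5 and Mok hold 33 and 117 coding bases, and the other 4 hold no coding base. The number of CpG dinucleotides per stretch was between 0 and 3. Over all bases of the 404 regions there were 1.29 CpG dinucleotides per 100 bases, compared with 1.21 in the 29868 OSKM B12 peaks of at least 500 bases that met both an OSKM and an uninduced peak (shared peaks).

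The regions were richer in G and C than the sets beside them. Their median GC content was 47.9% (95% interval of the median 47.3 to 48.5), compared with 45.3% in the shared peaks and 46.5% in the 3816 peaks found in the OSKM B12 list only. The mirror set, 2129 MEF B12 peaks of at least 500 bases that met a MEF peak and no peak of either induced list, had a median GC content of 43.4% (43.1 to 43.7). Whole lists differed less. The median over peaks of at least 500 bases was 44.97% for MEF and 44.9% for MEF B12, compared with 46.0% for OSKM and 45.3% for OSKM B12. Both induced lists were thus above both uninduced ones, but OSKM B12 was closer to MEF than to OSKM. The part of GC content in which regions were called was not tested. Repeat-masked bases made up 18.5% of the regions and 21.4% of the mirror set.

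Short sequences bound by the reprogramming factors were looked for on both strands in the central 500 bases of each region. These motifs were the octamer ATGCAAAT read by OCT4, the SOX sequence ACAATGG, the KLF sequence GGGTGTGG and the E-box CACGTG read by MYC, none of which contains another. The octamer was present in 6 of 404 regions (1.49%, 95% Wilson interval 0.682 to 3.20), compared with 2.18% of shared peaks, 2.78% of OSKM B12-only peaks and 3.19% of mirror regions. The SOX sequence was present in 5.198% of the regions (3.42 to 7.82), compared with 6.27% of shared peaks, 7.21% of OSKM B12-only peaks and 5.92% of mirror regions. For the KLF sequence the regions had 3.47% (2.08 to 5.73), compared with 3.93%, 4.40% and 3.66% in the same order. The octamer, SOX and KLF shares were thus lowest in the regions, with intervals that held the shares of the other sets. The E-box was present in 42 regions (10.4%, 7.78 to 13.8), compared with 7.57% of shared peaks, 7.65% of OSKM B12-only peaks and 7.19% of mirror regions. A match is a run of letters and not a bound site, and the E-box holds a CpG dinucleotide, which the regions also held more often.

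The regions were short and weak peaks. Their lengths ran from 500 to 2063 bases with a median of 723, and 87 reached 1000 bases. The authors' pileup, which averages the number of extended H3K36me3 fragments along a peak, was divided by the tags of the library and multiplied by 1000000 and is called the scaled pileup. In the OSKM B12 list the scaled pileup of the regions ran from 0.293 to 0.570 with a median of 0.402, and 17.2% of all peaks of that length lay below this median. The median −log10 q in the same list was 1.98, and 1 region, in exon 8 of the lipid transporter gene Abca7 (named after its value was seen), passed 5. The lists give 1 value for each peak, so the OSKM value of a region is that of the whole OSKM peak it meets, including bases outside the region. These OSKM peaks had a median scaled pileup of 0.365 and a median −log10 q of 1.62. The authors' fold enrichment over input had a median of 2.48 in OSKM B12 and 2.45 in OSKM. Mirror regions were alike in size, with a median length of 715 bases, scaled pileup of 0.407 and −log10 q of 2.00, whereas shared peaks had medians of 2646.5 bases, 0.576 and 4.46. At the length limit, the 3 shortest members measured 500, 502 and 502 bases with scaled pileups of 0.337, 0.349 and 0.537, and the 3 longest peaks that failed only on length measured 498, 497 and 497 bases with 0.373, 0.465 and 0.324. Without the length limit, 360 more peaks would have been members. Because the deposited lists give no pileup outside peaks, the uninduced values of the regions are known only to have missed the cut-off.

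The induced lists overlapped each other only in part within the regions. The bases shared with OSKM peaks ran from 9 to 1009 with a median of 351, a median of 45.3% of the region, and 171 regions had at least 50% of their bases in OSKM peaks. For 42 regions, the OSKM peak that met the region also reached into an uninduced peak elsewhere along its length. Before MEF B12 was considered, 1318 peaks of the OSKM B12 list met the rule against MEF alone, and 914 of them held a base of a MEF B12 peak.

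The scaled pileup of the regions was slightly higher with added vitamin B12 than that of the OSKM peaks they met. The scaled pileup in OSKM B12 divided by that in OSKM had a median of 1.10 (95% interval of the median 1.08 to 1.12) and ranged from 0.602 to 1.77, and it was higher in OSKM B12 in 308 regions and lower in 96. The direction depended on the scale. The undivided pileup had a median ratio of 0.975 and was higher in OSKM B12 in 180 of 404 regions, and the fold enrichment over input had a median ratio of 1.02 and was higher in OSKM B12 in 224. A ratio of at least 1.5 was reached by 8 regions (1.98%), beside 28.6% of all 30272 OSKM B12 peaks of that length that met an OSKM peak. The shared peaks had a median ratio of 1.37. Both values of a ratio had to pass a cut-off to be listed, which bounds the ratio of weak peaks, so the regions and the stronger shared peaks are not compared further.

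**Figure D1:**
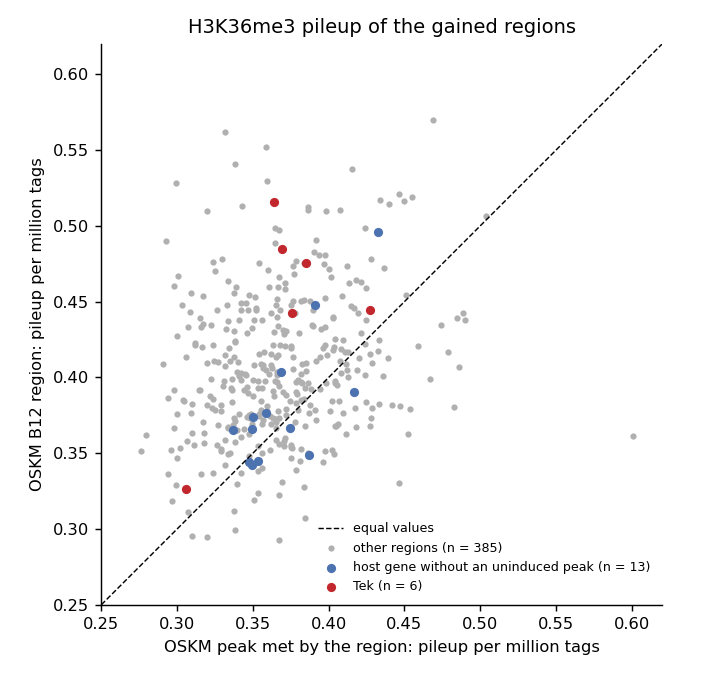
Each point is 1 of the 404 regions, with the H3K36me3 pileup per 1000000 tags of the OSKM peak it meets, over that whole peak (horizontal), and its own in OSKM B12 (vertical), and the dashed line marks equal values. In 308 regions the value was higher in OSKM B12, the 6 regions of Tek are red, and the 13 regions in genes without an uninduced peak are blue.

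The region with the largest ratio lay in Fbn1, which encodes fibrillin-1 of extracellular microfibrils. Its scaled pileup was 0.299 in OSKM and 0.529 in OSKM B12, a ratio of 1.77. The lowest ratio was in Ptov1, where the OSKM peak, which shared 27 bases with the region, had a scaled pileup of 0.601 over its whole length and the region had 0.361 in OSKM B12. That OSKM value is therefore mostly of bases outside the region. The 10 regions with the highest lower value of the pair lay in 10 different genes. The highest was in intron 8 of Tbc1d22b, which encodes a protein with a Rab GTPase-activating domain (chr17:29590750-29591735), with 0.504 in OSKM and 0.507 in OSKM B12. Next was intron 3 of Prkci, which encodes the atypical protein kinase C iota of cell polarity (chr3:31025149-31025858), with 0.469 and 0.570. Intron 4 of Pot1b, a telomere-binding protein gene, had 0.455 and 0.519. Intron 1 of Vapa, whose product tethers the endoplasmic reticulum to other membranes, had 0.451 and 0.454. The other 6 were in Blvra (biliverdin reductase), Nfia (a nuclear factor I transcription factor), Syne2 (the nuclear envelope protein nesprin-2), Lbp (lipopolysaccharide-binding protein), Pask (a PAS domain kinase) and Lars2 (mitochondrial leucyl-tRNA synthetase), with lower values of 0.438 to 0.449. In Syne2, Pask and Lars2 the OSKM value was the higher of the pair. All 10 genes also carried uninduced peaks elsewhere in their bodies, over 0.960% of Syne2 to 51.2% of Tbc1d22b in MEF.

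The regions lay in gene bodies, as the mark does in general. Of 404 regions, 373 (92.3%, 95% Wilson interval 89.3 to 94.5) overlapped a protein-coding gene of GENCODE M21, compared with 97.1% of shared peaks, 91.3% of OSKM B12-only peaks and 94.0% of mirror regions. Each region was given to the gene with which it shared most bases. By the longest coding transcript of that gene, 333 regions were centred in an intron, of which 79 in intron 1, and 32 in an exon. At least 1 exonic base was present in 27.5% of the regions and in 75.6% of the longer shared peaks, and exons made up 12.1% and 23.2% of the bases. A transcript start was held by 6 regions (1.49%, 0.682 to 3.20), compared with 7.03% of shared peaks. The shares of OSKM B12-only peaks (0.839%) and mirror regions (0.892%) lay within that interval. Of the 6 regions, 2 were in Syne2 and 1 each in Mbd5, Lbp, Tnfrsf25 and Ptov1, which were named after these values were seen.

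Within their genes the regions were spread more evenly than the shared peaks. The centre was past the midpoint of the gene, on the 3′ side, in 218 of 373 regions (58.4%, 53.4 to 63.3), compared with 68.0% (67.4 to 68.5) of shared peaks, 53.4% of OSKM B12-only peaks and 60.1% of mirror regions. When the gene was divided into 5 equal parts, 15.5% of the regions were centred in the part at the gene start and 24.1% in the part at the gene end, against 8.34% and 32.1% of the shared peaks. Mirror regions, with 12.4% and 26.6%, had intervals that overlapped those of the regions in all 5 parts.

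**Figure D2:**
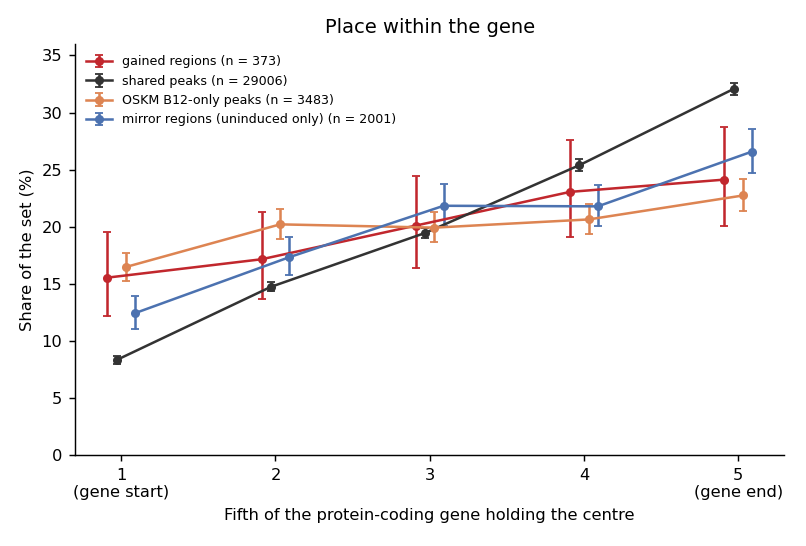
The horizontal axis gives the 5 equal parts of the gene from start to end and the vertical axis the share of each set centred there, with 95% Wilson intervals as bars. The gained regions (red) rise from 15.5% to 24.1% along the gene and the shared peaks (black) from 8.34% to 32.1%.

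Most regions filled part of a gap between uninduced peaks of the same gene. Of the 373 regions in genes, 283 (75.9%) lay between 2 uninduced peaks of their gene, 56 (15.01%, 11.7 to 18.99) lay 5′ of all of them, 21 (5.63%, 3.71 to 8.45) lay 3′ of all of them, and 13 were in a gene without any. In the mirror set, placed against the induced peaks of the gene, 10.0% (8.80 to 11.4) lay 5′ and 6.65% (5.64 to 7.82) 3′ of all, so the regions beyond the 5′ edge outnumbered those beyond the 3′ edge by 2.67 to 1 among the gained regions and by 1.51 to 1 in the mirror set. The OSKM B12-only peaks gave 2.91. The share lying between 2 peaks of the other cell state was 81.2% in the mirror set and 74.8% among OSKM B12-only peaks. Such a place was therefore not particular to the gained regions. The gaps between flanking uninduced peaks had a median of 4897 bases, of which the region filled a median of 14.6%, and 22 of 283 regions filled at least 50% of their gap. Mirror regions filled a median of 17.5% of their gap and OSKM B12-only peaks 11.8%.

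The nearest uninduced peak was a median of 783.5 bases away. It lay within 1 kb for 238 regions (58.9%, 54.1 to 63.6), compared with 48.7% of OSKM B12-only peaks, and mirror regions were within 1 kb of an induced peak in 62.4%. More than 5 kb separated 51 regions (12.6%, 9.73 to 16.2) from any uninduced peak, compared with 17.2% of OSKM B12-only peaks and 9.44% of mirror regions. The most distant was in exon 4 of Chst3, a chondroitin sulfotransferase gene, at 84648 bases. It was followed by a region in intron 3 of Ripor2, at 76762 bases, and by one 125 bases downstream of Cebpa, a transcription factor gene of adipocytes and myeloid cells, at 70801 bases. These 3 were chosen after their values were seen. Their scaled pileups were 0.387 and 0.349 in Chst3, 0.375 and 0.367 in Ripor2, and 0.406 and 0.395 near Cebpa, in OSKM and OSKM B12 respectively, so each was slightly lower with vitamin B12.

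**Figure D3:**
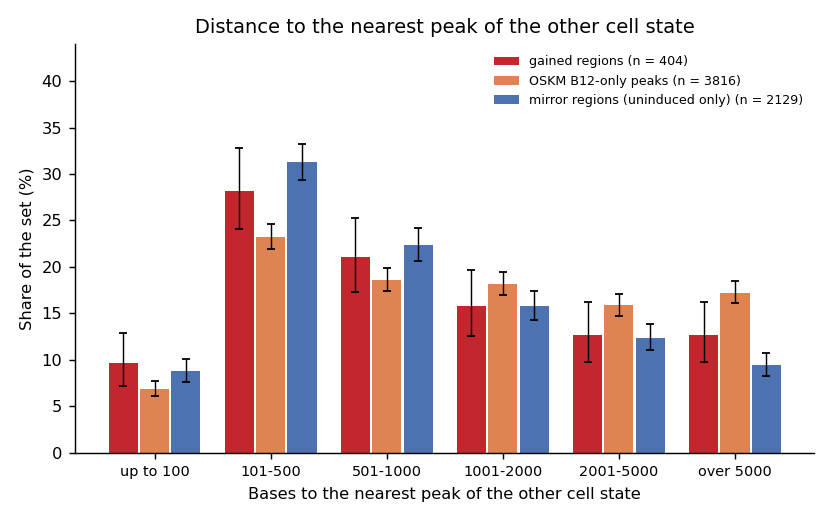
Bars give the share of each set, with 95% Wilson intervals, by the number of bases to the nearest uninduced peak (gained and OSKM B12-only) or induced peak (mirror). Of the gained regions, 9.65% lay within 100 bases and 12.6% beyond 5000 bases.

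The regions were scattered over many genes. They belonged to 336 protein-coding genes, which are 1.61% of the 20807 on chromosomes 1 to 19 and 3.10% of the 10853 touched by an OSKM B12 peak of at least 500 bases. One region was found in 307 genes, 2 in 25 genes, and 3 or more in 4 genes, namely Tek, Syne2, Nfia and Zfp521. Host genes were long, with a median of 74838 bases compared with 25027 for the genes touched by such a peak, and 124 of 336 (36.9%) were at least 100 kb long, compared with 12.9%. A long gene offers more bases in which a peak can fall, and the part of length was not tested. On chromosome 17, 1.07% of the OSKM B12 peaks of that length were regions, and on chromosome 16, 0.315%.

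Most host genes had a smaller share of their body inside called peaks in OSKM than in MEF. The share of the gene body inside peaks had a median over host genes of 21.7% in MEF and 24.3% in MEF B12, compared with 10.8% in OSKM and 27.5% in OSKM B12. Over the 10853 genes touched by an OSKM B12 peak of at least 500 bases, it was 42.7%, 46.2%, 23.9% and 46.8% in this order. A low OSKM share was therefore not particular to host genes. The covered share was higher in OSKM than in MEF in 43 of 336 host genes (12.8%), beside 7.21% of the 11942 protein-coding genes with a peak in any list. Without the bases of the regions themselves, which could only add to OSKM, the count was 31 (9.23%). The covered share in OSKM exceeded both uninduced lists in 33 host genes (9.82%), beside 4.02% of all such genes. By the rule the regions hold OSKM bases that no uninduced peak holds, and 12 of these 33 hosts had no uninduced peak. Nothing is therefore read from this difference. In OSKM B12 the covered share exceeded MEF in 314 host genes (93.5%), beside 68.0%. Since the regions were taken from the OSKM B12 list, nothing is read from this difference either.

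Tek, which encodes the angiopoietin receptor TIE2 of endothelial cells, had the most regions. Its 135688 bases on the plus strand of chromosome 4 held 6 regions with 6894 bases in all, placed from 37.1% to 99.1% of the way along the gene, in introns 2, 11, 13, 15, 20 and 21. The covered share of the gene was 2.84% in MEF and 3.63% in MEF B12, and after induction 7.85% in OSKM and 26.6% in OSKM B12. Without the region bases the OSKM share was 5.99%. Both uninduced values were thus below both induced ones. Tek was chosen for its regions, which by the rule hold induced peaks and no uninduced base, so the choice favours this order and nothing is read from it. The region in intron 2 (chr4:94789189-94790032) lay 9904 bases 5′ of the nearest uninduced peak, with scaled pileups of 0.369 in OSKM and 0.485 in OSKM B12. The last region (chr4:94872810-94874631) reached close to the gene end, with 0.364 and 0.516. In all 6 regions the OSKM B12 value was the higher, by ratios of 1.04 to 1.42.

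Tek is 1 of 7 endothelial markers that were looked at for other cell types in the culture. Pecam1, Cdh5, Tie1, Emcn and Vwf held no peak in any list, Kdr was covered over 0.903% in OSKM B12 and not in the others, and the summed covered share of the list ran from 2.84% in MEF to 27.5% in OSKM B12. Tek therefore made up nearly all of that sum, and the defining endothelial markers other than Kdr were at 0. In bulk chromatin, more cells with the mark and more of the mark per cell cannot be told apart.

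**Figure D4:**
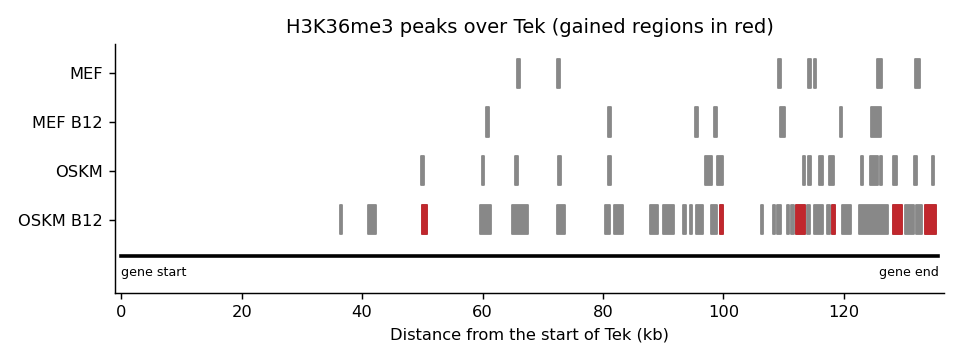
Peaks of the 4 lists along Tek are drawn as blocks against the distance from the gene start in kb, with the 6 gained regions in red in the OSKM B12 row. The uninduced rows hold 7 peaks each, and the gained regions lie between and beyond them.

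The other genes with most region bases were also long and carried peaks in uninduced cells as well. Syne2 held 4 regions with 3864 bases, and its covered share was 0.960% in MEF and 4.23% in MEF B12, against 2.75% in OSKM and 11.9% in OSKM B12. Dclk2, a microtubule-binding kinase gene of the doublecortin family, held 2 regions with 2724 bases, 2043 of them in a single region in intron 12, and its covered share was 0.984%, 2.198%, 1.91% and 4.12% in the same order. In these 2 genes OSKM lay above MEF and below MEF B12, so the uninduced and OSKM values overlapped. Ints9, a subunit gene of the Integrator complex that processes small nuclear RNAs, held 2 regions with 2889 bases in introns 8 and 10, and its covered share was 27.9%, 34.7%, 15.5% and 41.9%. Ambra1, which encodes a regulator of autophagy, held 2574 region bases, including the longest region of all, 2063 bases in intron 15. Its covered share was 16.5%, 19.8%, 8.87% and 20.4%. Nfia held 3 regions with 2477 bases and had 10.9%, 12.3%, 3.72% and 12.3%.

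Zfp521, a zinc finger transcription regulator gene, held 3 regions with 2320 bases, and Ctif, whose product takes part in cap-dependent translation initiation, held 2 with 2253. Their covered shares were lowest in OSKM, at 9.12% and 6.39%, and highest in OSKM B12, at 24.2% and 20.7%. Heg1, which encodes a transmembrane receptor needed for heart and vessel development, held 2 regions in intron 1 with 2238 bases, and was covered over 68.0% in MEF and 67.8% in MEF B12, against 47.5% in OSKM and 75.7% in OSKM B12. Dock9, an exchange factor gene for CDC42, held 2 regions with 2032 bases and had 11.6%, 15.6%, 10.3% and 25.6%. In 7 of these 10 genes the OSKM share was the lowest of the 4 libraries, as was the OSKM median over all touched genes.

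**Figure D5:**
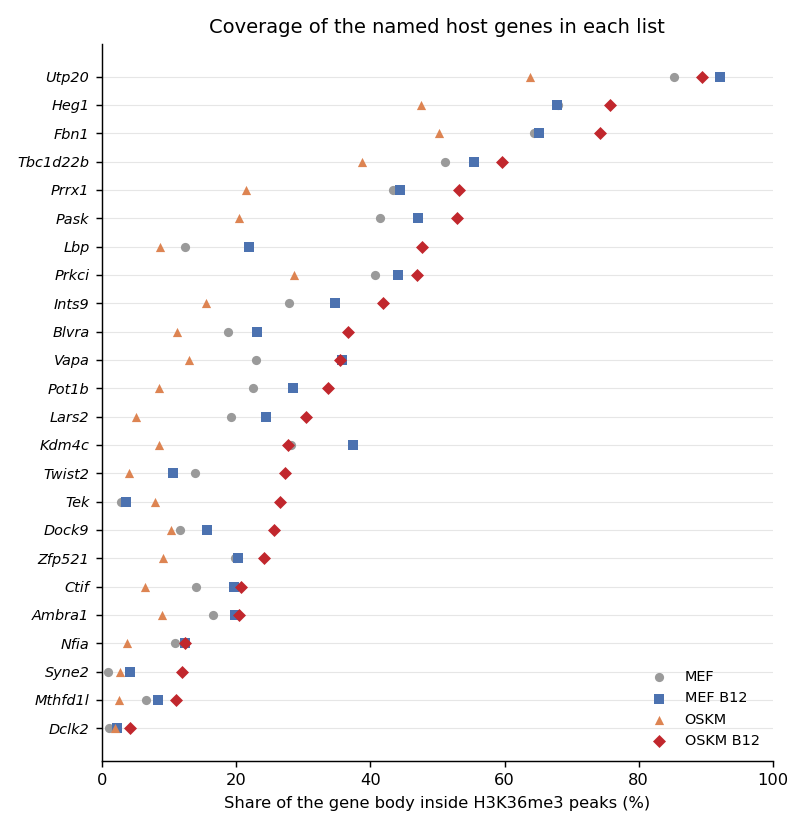
For each of the 24 named host genes, the horizontal axis gives the share of the gene body inside H3K36me3 peaks in each of the 4 libraries. OSKM (triangles) is the lowest value in 21 of the 24 genes, and Tek, Syne2 and Dclk2 are the exceptions, with MEF lowest. Over all genes touched by an OSKM B12 peak of at least 500 bases, the median share is also lowest in OSKM (23.9%, beside 42.7% in MEF).

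No base of an uninduced peak lay in 12 host genes, which are 3.57% of the host genes. Among the 11942 protein-coding genes with a peak in any list, 41 had no uninduced peak and a peak in both induced lists. The 12 were chosen for description after their values were seen, because no gene reached the 2000 region bases that the rule for naming such genes asked for. Their 13 regions had median scaled pileups of 0.359 in OSKM and 0.367 in OSKM B12, and 7 of the 13 were higher in OSKM B12. The covered share was 0% in MEF and MEF B12 by selection. In OSKM it ran from 1.17% in Ripor2 to 13.3% in Tnfrsf25, and in OSKM B12 from 1.75% in Mok to 20.2% in Mcrip2. Because the rule asked for 500 bases in the OSKM B12 list and 1 shared base in the OSKM list, nothing is read from the difference between these shares. Of the 13 regions, 9 were centred past 80% of the gene, beside 24.1% of all regions in genes. Since these genes were picked after their values were seen, nothing is read from this count.

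Mcrip2, which encodes a MAPK-regulated corepressor-interacting protein, was covered over 11.6% in OSKM and 20.2% in OSKM B12, in a stretch at its 3′ end (chr17:25863670-25864721). Plin5, the perilipin of lipid droplets in oxidative tissues, was covered over 8.66% and 16.0%, around intron 8 of a transcript of 9 exons. Tnfrsf25, which encodes death receptor 3 of the tumour necrosis factor receptor superfamily, was covered over 13.3% and 15.2%. Its region held a transcript start, at 9.66% of the gene, and an uninduced peak lay 190 bases from the region, outside the gene. For Mok, a MAP kinase-related gene, the nearest uninduced peak was 222 bases from the region, again outside the gene, so these 2 regions adjoined marked neighbours. Altogether 3 of the 13 regions were within 1 kb of an uninduced peak and 8 were more than 5 kb away.

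C1qb, which encodes a chain of the complement component C1q made mainly by macrophages, was covered over 7.46% in OSKM and 11.0% in OSKM B12, with scaled pileups of 0.350 and 0.374 in its exon 3. Of 7 macrophage markers, 3 held peaks in MEF and in OSKM, and 4 in MEF B12 and in OSKM B12. Their summed covered share was 124% of a gene body in MEF and 137% in MEF B12, against 88.4% in OSKM and 126% in OSKM B12, most of it from Cd68. Csf1r was also covered in every list, over 16.8%, 28.1%, 11.8% and 19.6% in the same order. Adgre1 and Itgam held peaks in some of the lists, over at most 5.06% of the gene body. Lyz2 was covered over 6.73% in MEF only. Ptprc and Tyrobp were at 0 in all 4 lists. None of the 7 had a region. The other genes without uninduced peaks included Chst3, Ripor2 (an inhibitor of the GTPase RHOA), Podxl2 (endoglycan, a sialomucin), Ppfia4 (liprin-alpha-4) and 2 genes known only by clone names. Their covered shares were at most 5.13% in OSKM and 7.96% in OSKM B12.

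The genes of the reprogramming programme were examined by lists. Among 273 genes of 10 functional lists, 6 (2.198%) hosted a region, beside 1.61% of all protein-coding genes. Only a gene touched by an OSKM B12 peak of at least 500 bases can host a region, and 3.10% of all such genes did. No region lay in any of 35 epithelial genes, 30 genes of stratified epithelium, 36 pluripotency genes, the 4 genes of the OSKM cassette, 21 neural genes or 18 germline and two-cell genes. Most of these genes had no OSKM B12 peak of at least 500 bases at all. Such a peak touched 7 of the epithelial genes, 4 of the stratified epithelium genes, 8 of the pluripotency genes, 2 of the cassette genes, 4 of the neural genes and 1 of the germline genes. At a share of 3.10%, so few touched genes leave nothing to be read from the lack of a region. Regions were absent from these genes at the depth and cut-off of the lists, which does not show that the mark was absent.

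Of 35 fibroblast and mesenchymal genes, 3 (8.57%) hosted a region, and 32 were touched by an OSKM B12 peak of at least 500 bases. Over all protein-coding genes touched by such a peak, 3.10% hosted a region, and a count of 3 is too small to read a difference. The region of Twist2, a mesenchymal transcription factor gene, lay in intron 1, and the covered share of the gene was 13.8% in MEF and 10.6% in MEF B12, against 4.06% in OSKM and 27.2% in OSKM B12. Prrx1, another such gene, had a region in intron 1 and shares of 43.4%, 44.4%, 21.4% and 53.2%. Fbn1 had 64.4%, 65.2%, 50.2% and 74.2%. All 3 were lowest in OSKM over the whole gene body although each held a region that was present in OSKM and not in MEF.

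One gene hosted a region in each of 3 more lists. Mthfd1l, which makes formate from folate-bound carbon in mitochondria, was the host among 35 one-carbon and vitamin B12 genes. Its region in intron 25 had scaled pileups of 0.309 in OSKM and 0.376 in OSKM B12 and lay 13210 bases from an uninduced peak, and the gene was covered over 6.49% in MEF and 8.38% in MEF B12, against 2.49% in OSKM and 11.0% in OSKM B12. Kdm4c, a demethylase of lysines 9 and 36 of histone H3, was the host among 28 H3K36 methylation genes. Its region in intron 19 had 0.337 and 0.312 and lay 22 bases from an uninduced peak, and the gene was covered over 28.2%, 37.5%, 8.45% and 27.8%. Utp20, which encodes a component of the small-subunit processome of ribosome assembly, was the host among 35 MYC target genes. Its region in intron 27 shared 60 bases with an OSKM peak, with 0.335 and 0.350, and the gene was covered over 85.3%, 92.2%, 63.8% and 89.4%. In these 3 genes, too, OSKM was the lowest of the 4 libraries, as it was in the median over all touched genes.

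Outside protein-coding genes there were 31 regions, most of them just past a gene end. Of these, 23 lay within 5 kb downstream of the nearest protein-coding gene, 1 lay within 5 kb upstream of one, and 7 were farther away. The genes with a region within 5 kb downstream included Cebpa, Socs1 (a suppressor of cytokine signalling), Ctbp1 (a transcriptional corepressor) and Map3k4 (a stress-activated kinase). Among the 31, 6 overlapped another annotated gene, including Crnde, a long noncoding RNA gene beside Irx5, whose region had scaled pileups of 0.467 in OSKM and 0.399 in OSKM B12. The longest of the 31, 1966 bases near Map3k4, had 0.404 and 0.398. These examples were chosen after their values were seen.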

How the data were processed

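The data were 4 lists of broad H3K36me3 peaks, 1 for each of MEF, MEF B12, OSKM and OSKM B12, and each input library entered through the peak calling. Per the paper's methods and the labels, the authors' reads were aligned to mm10 by Bowtie 0.12.9, with only unique alignments kept, runs were merged, duplicate reads were dropped, and MACS2 2.2.6 called peaks in each library at q-value cut-offs of 0.05 and 0.1. They set an effective genome size above that of the assembly, so the genome-wide floor of the input level was lower, with an effect that was not tested. The deposited pileup is a signal, the mean fragment coverage over a peak, and was not scaled. The deposited fold enrichment is a ratio of pileup to local input, with 1 added to both. Significance was deposited as −log10 values for p-value and q-value.

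Scaled pileup was computed as pileup per 1000000 tags. The OSKM value of a region is the deposited value of the whole OSKM peak it meets (where it met more than 1, their mean weighted by shared bases), since the lists hold no values within peaks. Genes, exons and gene lengths came from GENCODE M21, and sequence came from RefSeq GRCm38, in which 0 peaks ran past a chromosome end. Python 3.11, numpy 2.4.6, pandas 2.3.3, scipy 1.17.1 and pysam 0.24.0 were used. Overlap needed at least 1 base. The interval arithmetic was tested on simulated data in 200 sets of lists, of which 0 differed from a count base by base.

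With 1 library per condition, no test was made. Shares carry 95% Wilson intervals and medians exact binomial order-statistic intervals. Both cover counting error only, and they treat regions as separate although neighbouring regions share a gene and a library. The regions and the gene lists were chosen with earlier results of these data known. The genes named were those with most region bases (10), those of the 10 regions with the highest lower scaled pileup, those of the lists with a region, and up to 15 genes with at least 2000 region bases and no uninduced peak, of which there were none. Alternatives to the length limit, overlap, significance, merging, starting list, chromosomes, gene model and scaling were tried. The RNA-seq data of the study were not used here, and 1 gene is counted but not reported here.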

Additional observations from a re-analysis of the deposited data

Results flagged for a closer look

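In 2 of the 24 named genes the covered share was lower with added vitamin B12 in uninduced cells and higher with it in induced cells. In Heg1 it was lower by 0.172 percentage points in MEF B12 than in MEF (a difference of -0.172), and higher by 28.2 percentage points in OSKM B12 than in OSKM. In Twist2 the differences were -3.21 and 23.2 percentage points. With 1 library per condition these differences between the cell states were not tested.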

How the results depend on the processing

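The rule, more than the annotation, set the number of regions. In place of 404 regions in 336 genes, of which 12 had no uninduced peak, there were 764, 611 and 19 with a minimum length of 200 bases, 87, 77 and 2 with 1000 bases, 169 and 145 with uninduced peaks widened by 1 kb, 171, 153 and 6 with at least 50% of the region in OSKM peaks, 230 and 195 after merging peaks at most 1 kb apart, and 1, 1 and 0 at a −log10 q of at least 5. That 1 region made the share in gene bodies 100%, the share on the 3′ side 0%, the share within 1 kb of an uninduced peak 0% and the ratio 1.32. The share on the 3′ side of the midpoint, 58.4%, was 52.5% at 1000 bases, 51.6% with widened peaks and 63.7% with 50% overlap. The share within 1 kb, 58.9%, was 1.78% with widened peaks by construction, 34.8% after merging and 70.7% from the OSKM list. The share in gene bodies, 92.3%, was 87.6% with the longest transcript of genes with at least 4 exons. The median ratio of OSKM B12 over OSKM, 1.10, was 1.16 from the OSKM list, 1.02 by fold enrichment, and reversed to 0.975 without division by tags. Adding chromosomes X and Y moved none of the 7 results beyond its interval or by over 1.5 times. No paired analysis was possible because there was 1 library for each condition, and no replicate could be left out. At this depth a peak absent from a list is enrichment that missed the cut-off, and variation between cultures and immunoprecipitations was not measured.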
